A study of Triticum aestivum with 24 samples.

Results

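Flag leaves of the drought-tolerant bread wheat cultivar C306 were compared with those of the drought-susceptible cultivar WL711, both under drought and both at the reproductive stage. The comparison rests on 6 of the 24 Affymetrix wheat arrays of the series, namely the 3 whose titles give C306 under drought and the 3 whose titles give WL711 under drought. C306 and WL711 are the parents of a set of recombinant inbred lines. The other 18 arrays, 3 in each group, cover irrigated C306, irrigated WL711, and a tolerant and a susceptible bulk of 10 such lines each, under drought and under irrigation. No group carries a transgene or any treatment other than the water regime, and the labels state neither plant age nor how long or severe the drought was. The series text calls the 3 arrays of a group biological replications without saying what was replicated, so p-values cover only array-to-array spread, some of which may be technical. That spread was pooled over all 8 groups. The SE printed for a gene can therefore be narrower or wider than its 6 arrays alone would give. Replicates of both parents correlated less under drought than under irrigation. The pooled spread, and with it the SE and p-values, may therefore be too small for many genes in this comparison. Each side of the comparison is 1 cultivar, so drought tolerance and every other difference between C306 and WL711 cannot be told apart. Transcript level cannot be told apart from sequence differences between the cultivars under the probes, nor fewer cells of a type in the leaf from less RNA per cell.

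The flag leaf is the last leaf a wheat stem forms, and it supplies much of the sugar that fills the grain. Under drought, wheat leaves make protective hydrophilic proteins such as dehydrins and other late embryogenesis abundant (LEA) proteins, and stores of fructan, a polymer of fructose, can be broken down by fructan exohydrolases. Cell wall enzymes, starch synthesis, sulfur metabolism and antioxidant enzymes are also known to respond to water shortage in plants.

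Of 36707 probe sets tested with limma, 5153 were called at an adjusted p under 0.05, which is 14.0%. A probe set is a group of short probes designed against a transcript or a set of similar ones. Binding of related transcripts was not tested. C306 was higher for 1968 of them (5.36%) and lower for 3185 (8.68%). Levels are given as log2(signal + 16), centred array by array, and differences are C306 minus WL711 on that scale, which understates the change of dim probe sets. The 3 C306 arrays did not overlap the 3 WL711 arrays for 4233 of the called probe sets (11.5%), while 8579 of all tested probe sets (23.4%) showed no overlap, called or not. Among the calls, 1178 were higher by at least 1 on the log2 scale and 1868 lower, and 150 were higher by at least 3 and 155 lower. The median difference over all tested probe sets was -0.03.

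The direction of the calls depended on signal strength. Among the dimmest 25% of probe sets, 196 were higher and 134 lower in C306, so 59.4% of calls were higher. Among the brightest 25%, 809 were higher and 1460 lower, so 35.7% were higher. The median difference was 0.17 in the dimmest bin and -0.15 in the brightest. Among all calls 38.2% were higher, but 18.1% were when arrays were centred on all probe sets and 49.8% were when the lowest 60% of probe sets were left out.

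**Figure D1:**
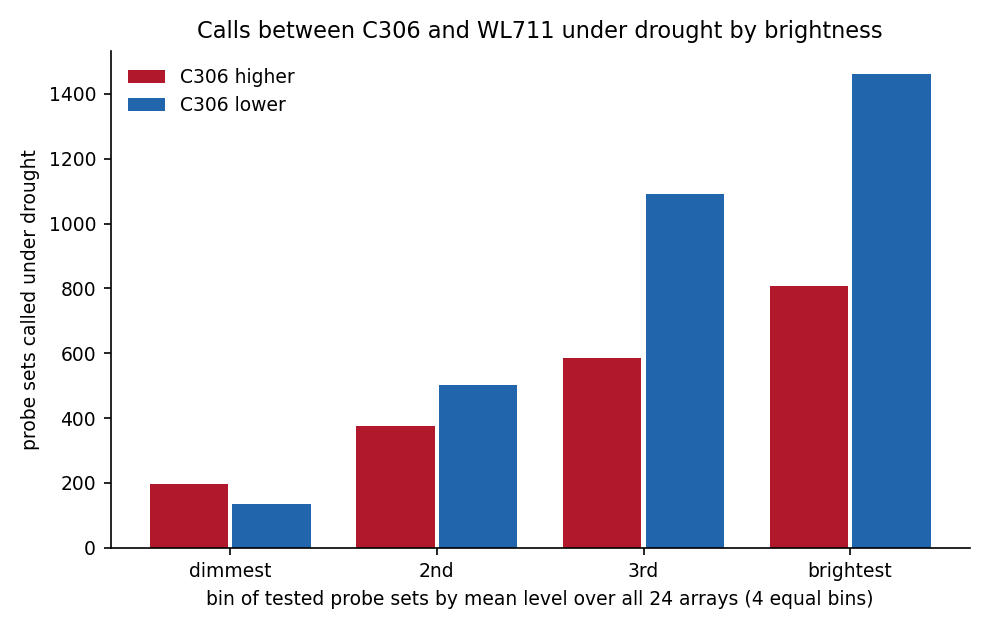
Number of probe sets called higher (red) or lower (blue) in C306 than in WL711 under drought, in 4 equal bins of the tested probe sets by mean level over all 24 arrays. Higher calls outnumber lower calls in the dimmest bin, 196 against 134, and lower calls outnumber higher calls in the other bins.

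Some of the 6 arrays stood apart. Over the tested probe sets, WL711 drought array 1 correlated with the irrigated WL711 arrays at a mean Pearson r of 0.942, above its mean of 0.901 with the other 2 drought arrays of WL711. WL711 arrays 2 and 3 were closer to their own group, at 0.931 and 0.924, than to irrigated WL711, at 0.89 and 0.873. C306 drought array 2 correlated at 0.92 with its group and 0.92 with irrigated C306, while arrays 1 and 3 both reached 0.923 within the group, against 0.873 and 0.872 with irrigated C306. The 18 hybridisation spike-in probe sets had mean levels of 14.32, 13.01 and 13.76 on the C306 drought arrays and 12.22, 12.66 and 12.99 on the WL711 drought arrays, so every C306 array was brighter on the centred scale. Without centring the groups overlapped, with 14.34, 12.91 and 13.82 on the C306 arrays and 12.07, 12.65 and 12.95 on the WL711 arrays. The 3′ minus 5′ level of the actin controls was 0.21, -0.2 and -0.32 on the C306 arrays and 0.43, 0.6 and 1.86 on the WL711 arrays, again without overlap. The GAPDH controls overlapped, with 0.26, 0.38 and 0.6 in C306 and 0.11, -0.34 and 2.0 in WL711. So did the EF1a controls, with 0.59, 0.42 and 1.47 in C306 and 1.15, 2.25 and 0.88 in WL711. The part of spike-in brightness and RNA quality in the differences below was not tested. Without WL711 drought array 1 and C306 drought array 2 together, 6565 probe sets were called, and without C306 drought arrays 1 and 3 together, 1159 were. When the fit held only the 6 arrays compared, 864 were called, and 38 of the 54 calls described below on named genes and single probe sets were lost. That fit took its spread from those 6 arrays alone. Replicates correlated at 0.893 to 0.955 in WL711 and 0.92 to 0.925 in C306 under drought. In irrigated leaves they correlated at 0.963 to 0.966 in WL711 and 0.955 to 0.961 in C306.

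Several unnamed probe sets set the 3 C306 drought arrays apart from all other 21 arrays. For 17 probe sets the 3 arrays lay at least 3 on the log2 scale outside the range of the others, 11 of them lower and 6 higher. The probe set with the largest fall had 8.07, 6.81 and 7.13 in C306 under drought, against 14.85, 15.07 and 15.47 in WL711 under drought. Its difference was -7.79 ± 0.29 (SE, adjusted p = 6.4e-16), and its level on the other 21 arrays ran between 14.27 and 15.67, so irrigated C306 was as bright as WL711. The probe set with the next largest fall had 4.28, 4.56 and 4.12 in C306, against 11.27, 11.82 and 12.04 in WL711, and between 10.44 and 12.04 on the other 21 arrays. In both probe sets the signal was low in C306 under drought and bright in irrigated C306. Whether the drought and the irrigated C306 arrays hold the same genotype was not tested. Every comparison that uses the C306 drought arrays takes the labels as they stand. That holds for the comparison with WL711, the comparison between regimes and the one set beside the bulks. No such probe set was found for WL711 under drought, 2 were found for irrigated C306 and 15 for the susceptible bulk under drought. The 11 low probe sets had C306 levels between 4.12 and 8.07 and levels between 9.08 and 15.7 elsewhere. Their part in the other results was not tested.

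The 2 widest gains of signal among the unnamed probe sets were also present under irrigation. The probe set with the largest rise had 12.91, 11.89 and 12.25 in C306 under drought, against 4.55, 5.02 and 5.17 in WL711. Its difference was 7.44 ± 0.30 (SE, adjusted p = 3.49e-15), and it was also 4.33 higher in irrigated C306 than in irrigated WL711. The change between regimes was 3.11 ± 0.43 (adjusted p = 2.63e-05), so the difference was wider under drought. The next had 13.01, 11.94 and 12.74 in C306, against 4.67, 6.35 and 4.71 in WL711, and was 5.86 higher in C306 under irrigation as well. Of the 305 probe sets called with a difference of at least 3, rises and falls together, 218 were called the same way under irrigation. Among all drought calls, 27.8% were. In 97 of the 305 the lower parent lay under 5.77 in both regimes, the lowest mean level of any tested probe set.

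Annotation limited which genes could be named. The annotation paired 1273 probe sets with 771 genes, most of which carry only a RefSeq LOC number and no descriptive symbol. Of 948 named probe sets tested, 97 were higher in C306 (75 genes) and 96 lower (88 genes), or 20.4% called, against 14.0% of all tested probe sets. Taking for each of the 632 tested genes its brightest probe set, 60 were higher and 69 lower, with a median difference of -0.10. The counts for the gene lists below use the same measure and are to be read beside those numbers. No list was tested against them. Probe sets of the same gene did not always go together. Of 72 genes with several probe sets and at least 1 call, 15 had all of them called the same way and 4 had calls in opposite directions.

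In carbohydrate metabolism a fructan-degrading gene was higher in C306 and a starch synthesis gene was lower. The list held 6 genes, 3 of which were tested, and of their brightest probe sets 1 was higher and 1 lower, with a median difference of 0.49. 6-FEH, a fructan exohydrolase that removes fructose from the 2,6 linkages of fructan, had 11.22, 11.16 and 10.84 in C306, against 8.7, 9.66 and 9.92 in WL711. All 3 C306 arrays lay above all 3 WL711 arrays, and the difference was 1.65 ± 0.25 (SE, adjusted p = 5.88e-05), or 3.14-fold. A second probe set of 6-FEH had 9.6, 9.56 and 9.14 in C306, against 7.6, 8.44 and 7.93 in WL711, a difference of 1.44 ± 0.27 (adjusted p = 0.000679). Its remaining, dim probe set had a difference of -0.74 that was not called (adjusted p = 0.319). 1-FEH, an exohydrolase of the 2,1 linkages and the brightest gene of the list, had 14.7, 13.98 and 14.23 in C306 and 13.48, 14.09 and 13.89 in WL711. Its arrays overlapped and its difference of 0.49 was not called (adjusted p = 0.143).

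AGP-S, the small subunit of ADP-glucose pyrophosphorylase, which makes the sugar donor for starch, went the other way. It had 10.49, 10.32 and 10.09 in C306, against 12.24, 11.22 and 11.1 in WL711, and no C306 array reached the lowest WL711 array. The difference was -1.22 ± 0.23 (SE, adjusted p = 0.000686). In irrigated leaves the parents differed by -0.20 (adjusted p = 0.619), but the change in the difference between regimes, -1.02 ± 0.33, was not called (adjusted p = 0.0542). The array controls carry sucrose synthase, an enzyme that splits sucrose: its 3′ control read 10.57, 10.8 and 10.65 in C306, against 11.37, 11.62 and 11.92 in WL711. Its middle control averaged 7.25 in C306 and 6.37 in WL711 and its 5′ control 4.96 in C306 and 5.5 in WL711, with overlap between the groups in both. Controls were outside the test, so these values are a description.

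Of 3 methyl transfer genes tested, the brightest probe sets of 2 were higher in C306 and none was lower, with a median difference of 0.65. Among all 632 named genes, 60 were higher and 69 lower by the same measure. COMT1, a caffeic acid O-methyltransferase of lignin synthesis, had 14.2, 14.27 and 13.95 in C306, against 12.37, 12.84 and 12.68 in WL711. The groups were more than 1 apart on the log2 scale, and the difference was 1.51 ± 0.15 (SE, adjusted p = 1.06e-07), or 2.84-fold. SAHH, adenosylhomocysteinase, which clears the by-product of methylation, had 16, 15.7 and 15.95 in C306, against 15.43, 15.07 and 15.18 in WL711. Its arrays did not overlap, and its difference was 0.65 ± 0.18 (adjusted p = 0.0159), while a second, dimmer probe set had 0.26 and was not called (adjusted p = 0.592). The SAHH call was lost without C306 array 1, C306 array 3 or WL711 array 2, and with arrays centred on all probe sets. PEAMT1, a phosphoethanolamine methyltransferase on the way to choline and glycine betaine, had 14.61, 15.21 and 14.67 in C306 and 14.74, 14.06 and 14.09 in WL711, a difference of 0.53 that was not called (adjusted p = 0.121).

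Dehydrin and LEA genes had a median difference of 1.1 over 4 tested genes, but the brightest probe set of none of them was called. Rab15, a dehydrin, had 6.87, 7.88 and 7.92 in C306, against 6.63, 5.35 and 5.02 in WL711, on the dimmer of its probe sets. The groups did not overlap, and the difference was 1.89 ± 0.52 (SE, adjusted p = 0.0153). The brighter Rab15 probe set had 7.74, 7.93 and 7.92 in C306, against 6.16, 6.52 and 7.25 in WL711, a difference of 1.22 that was not called (adjusted p = 0.0826). The call on the dimmer probe set was lost without C306 array 3, without WL711 array 2 and without WL711 array 3. LEA1, a late embryogenesis abundant protein gene, had 9.88, 8.91 and 9.89 in C306, against 5.54, 8.41 and 8.85 in WL711, a difference of 1.96 (adjusted p = 0.061). Its lowest value was on WL711 array 1, the array that resembled irrigated WL711. EM, an Em-type LEA gene, differed by 0.98 (adjusted p = 0.213), and COR410, a dehydrin of cold and drought, by -0.73 with 5.83, 6.0 and 5.06 in C306 and 6.18, 6.67 and 6.22 in WL711 (adjusted p = 0.266).

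**Figure D2:**
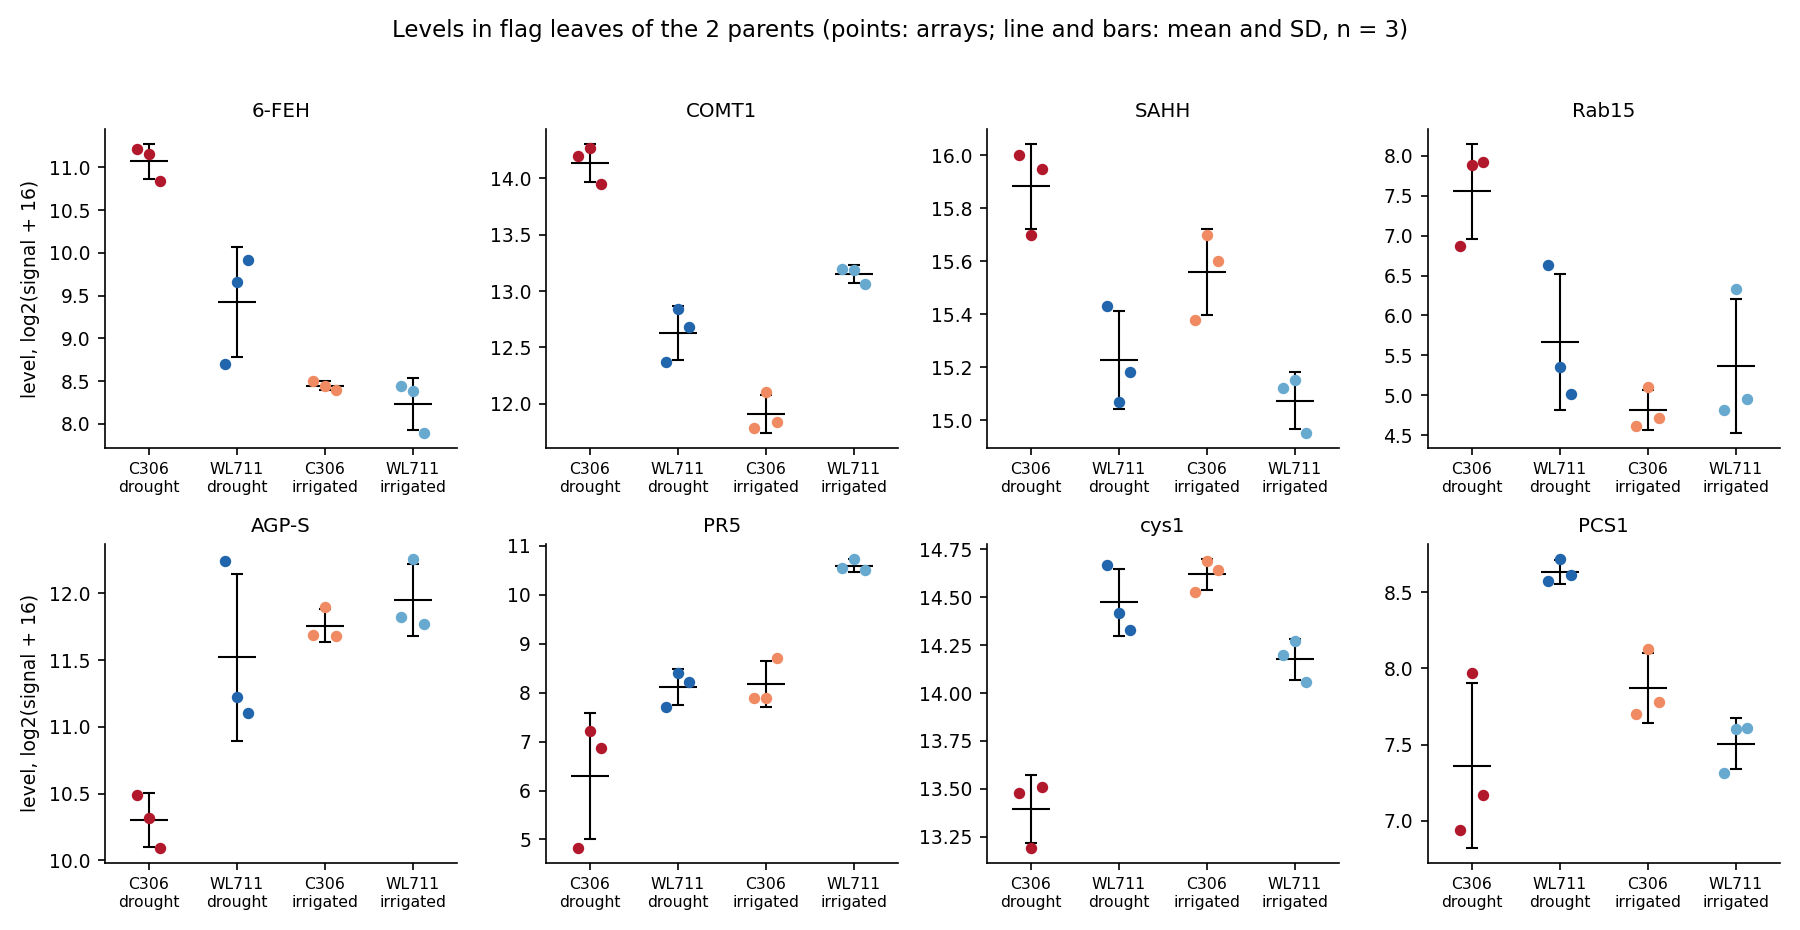
Levels, log2(signal + 16), of 8 genes in C306 and WL711 under drought and under irrigation, with points for arrays and lines and bars for the mean and SD of 3 arrays. Under drought 6-FEH, COMT1, SAHH and Rab15 are higher in C306, and AGP-S, PR5, cys1 and PCS1 are lower, without overlap between the groups.

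Of 4 defence genes tested, the brightest probe set of 1 was lower in C306 and none was higher, with a median difference of 0.82. The gene called was PR5, which encodes a thaumatin-like pathogenesis-related protein. PR5 had 4.82, 7.21 and 6.86 in C306, against 7.71, 8.41 and 8.22 in WL711, a difference of -1.82 ± 0.37 (SE, adjusted p = 0.00158). Every C306 array lay below every WL711 array, and the difference was -2.43 in irrigated leaves. LTP3, a lipid transfer protein gene, had 9.1, 9.0 and 8.56 in C306 and 7.41, 7.56 and 8.58 in WL711 on its dimmer probe set. That difference was 1.04 ± 0.32 (adjusted p = 0.0299), with 1 WL711 array inside the C306 range, and the call was lost without any of C306 arrays 1 and 2 and WL711 arrays 1 and 2. The brighter LTP3 probe set differed by 0.62 (adjusted p = 0.155). XIP-I, an inhibitor of fungal xylanase, differed by 1.02 and 1.23 on 2 probe sets, neither of them called (adjusted p = 0.104 and 0.0742), and wci by 1.33 (adjusted p = 0.187).

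Photosynthesis genes gave no call on the brightest probe sets of the 6 tested, whose median difference was -0.49. rbcl, the gene of the large subunit of Rubisco, had 17 tested probe sets, of which 1 was called. That probe set had 10.78, 10.38 and 10.96 in C306 and 9.01, 9.87 and 10.45 in WL711, groups that overlapped, and its difference was 0.93 ± 0.29 (SE, adjusted p = 0.0336). The call was lost without any of 4 of the 6 arrays, namely C306 arrays 1 and 3 and WL711 arrays 1 and 2. PsbO and PsbP, subunits of the oxygen-evolving complex, had differences of -0.54 and -0.63 on their brightest probe sets (adjusted p = 0.239 and 0.181). The Calvin cycle genes PRK, phosphoribulokinase, and FBP, fructose bisphosphatase, had 0.07 and -0.52 (adjusted p = 0.869 and 0.168). Trx-M, a chloroplast thioredoxin, had -0.45 (adjusted p = 0.324). For PRK, PsbO, PsbP, FBP and Trx-M the highest value of all 6 arrays was on WL711 array 1, with 15.44 for PsbO and 13.47 for FBP. petC, the Rieske protein of the cytochrome complex, had 16.37, 15.72 and 16.13 in C306, against 15.28, 15.11 and 15.71 in WL711, a difference of 0.70 that was not called (adjusted p = 0.106).

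The 4 green leaf markers had summed levels between 17.6 and 17.9 on the C306 drought arrays and between 17.2 and 17.6 on the WL711 drought arrays, so both sets of arrays held bright leaf transcripts. Grain proteins mark a tissue that the samples should not hold. Of 19 such genes, 7 passed the filter on low signal, with summed levels between 12.2 and 12.4 in C306 and between 12.6 and 13 in WL711. Those ranges did not overlap, but the sum mostly followed 1 gene. ALP averaged 12.34 over all arrays and the next brightest, WMAI-1, 7.15. The median difference over the 7 genes was 0.05. ALP, an avenin-like protein gene and the brightest of the 7, had 12.04, 12.21 and 11.78 in C306, against 12.97, 12.53 and 12.38 in WL711, a difference of -0.62 ± 0.16 (SE, adjusted p = 0.0122) that was not called without C306 array 3 or WL711 array 1. Storage and inhibitor genes such as Gli-8 and WMAI-1 were dim, with 8.4, 7.48 and 7.89 for Gli-8 in C306 and 6.39, 7.65 and 7.74 in WL711, and were not called. The part of other tissues in the differences was not tested. raftin1b, an anther gene, read 6.94, 5.82 and 6.01 in C306 and 7.03, 6.62 and 6.9 in WL711 (adjusted p = 0.499).

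Of 5 antioxidant genes tested, the brightest probe set was higher in C306 for 1 and lower for 1, with a median difference of -0.45. Prx1, which encodes a peroxiredoxin, had 14.39, 14.55 and 14.23 in C306, against 13.98, 13.74 and 13.81 in WL711, a difference of 0.55 ± 0.14 (SE, adjusted p = 0.0109) that was not called with no filter or with arrays centred on all probe sets. Another bright probe set of Prx1 had 0.43 ± 0.14 (adjusted p = 0.0449), 1 more had 0.40 and was not called (adjusted p = 0.34), and a dim one had -1.03 ± 0.35 (adjusted p = 0.0465). The call at 0.43 was lost without C306 array 1 or 2 or WL711 array 2 or 3, and that at -1.03 without C306 array 1 or 3 or WL711 array 1. The probe sets of Prx1 therefore did not move together. GSTZ1, a zeta class glutathione transferase, had 11.74, 12.29 and 11.79 in C306, against 12.55, 12.76 and 12.53 in WL711, a difference of -0.67 ± 0.20 (adjusted p = 0.0259). Its other probe sets had -0.44 and 0.33 and were not called, and the call was lost without C306 array 1, C306 array 3 or WL711 array 2. CAT1, a catalase gene, had -0.41 on its bright probe set (adjusted p = 0.298).

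Sulfur and metal metabolism were represented by genes that lie outside the lists and were chosen after their values were seen. cys1, a cysteine synthase, had 13.48, 13.19 and 13.51 in C306, against 14.67, 14.42 and 14.33 in WL711. The groups were clearly apart, with a difference of -1.08 ± 0.17 (SE, adjusted p = 6.97e-05), and its other probe set had -0.83 ± 0.17 (adjusted p = 0.00168). PCS1, phytochelatin synthase, which makes metal-binding peptides from glutathione, had 6.94, 7.97 and 7.17 in C306, against 8.57, 8.72 and 8.61 in WL711. Its difference was -1.27 ± 0.29 (adjusted p = 0.0041). lgul, lactoylglutathione lyase, which uses glutathione to detoxify methylglyoxal, had 11.04, 12.03 and 11.32 in C306 and 12.82, 11.86 and 11.9 in WL711, with overlap. Its difference was -0.73 ± 0.22 (adjusted p = 0.0235), its brighter probe set had 0.11, and the call was lost without C306 array 1, C306 array 3 or WL711 array 1. DMAS1, which makes the iron chelator deoxymugineic acid, had 11.1, 11.38 and 11.17 in C306, against 10.53, 10.37 and 10.67 in WL711. The groups did not overlap, with a difference of 0.69 ± 0.20 (adjusted p = 0.0241), but 2 dimmer probe sets had 0.11 and 0.16, and the call was lost without C306 array 2, C306 array 3 or WL711 array 2.

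Of 11 histone and tubulin genes, the brightest probe set of 1 was higher and none was lower, and the median difference was -0.08. Among all 632 named genes, 60 were higher and 69 lower by the same measure. tubb1, a beta-tubulin gene, had 12.43, 11.56 and 12.02 in C306, against 11.2, 11.38 and 11.46 in WL711, a difference of 0.66 ± 0.19 (SE, adjusted p = 0.0184) that was not called without C306 array 1, C306 array 3 or WL711 array 1. Of 7 translation genes, the brightest probe set of 1 was lower and the median difference was -0.34. Eif4B, initiation factor 4B, had 11.39, 12.02 and 11.37 in C306, against 12.09, 12.12 and 12.4 in WL711, a difference of -0.61 ± 0.16 (adjusted p = 0.0137), lost without C306 array 1, C306 array 3 or WL711 array 3. RPS29, a ribosomal protein gene, had 7.8, 8.17 and 7.49 in C306, against 6.8, 5.89 and 6.46 in WL711, a difference of 1.44 ± 0.36 (adjusted p = 0.00805), while its brighter probe set had 0.35 and was not called. Hmgb3, a high mobility group protein gene outside the lists, had -0.67 ± 0.22 (adjusted p = 0.0422), with overlap and lost without C306 array 1, C306 array 3 or WL711 array 1. PIMT, which repairs damaged aspartyl residues in proteins and was also outside the lists, had 8.06, 9.21 and 8.37 in C306, against 9.96, 9.7 and 9.87 in WL711. No C306 array reached the WL711 arrays, and the difference was -1.29 ± 0.24 (adjusted p = 0.000514). The single genes tested for chaperones, FKBP70, and for transport, ha1, gave no call, and no gibberellin 20-oxidase gene passed the filter.

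Apart from PR5, the genes with the widest differences carried only RefSeq numbers. The 12 with the largest rise ran from 2.24 for LOC543320 to 5.49 for LOC543418, and the 12 with the largest fall, PR5 among them, ran from -1.72 to -2.32. LOC543418 had 13.79, 12.97 and 13.73 in C306, against 11.89, 6.48 and 5.65 in WL711. WL711 array 1 lay far above the other 2 WL711 arrays, and the difference of 5.49 ± 0.85 (SE, adjusted p = 6.76e-05) came with a brighter probe set of that gene at -0.69, not called (adjusted p = 0.146). LOC542773 had 13.68, 11.94 and 12.91 in C306, against 8.46, 6.95 and 7.07 in WL711, a difference of 5.35 ± 0.43 (adjusted p = 1.34e-09), and its brighter probe set had 4.06 ± 0.30. LOC100037571 had 10.52, 11.7 and 10.64 in C306, against 5.03, 6.66 and 6.16 in WL711. It was 5.0 ± 0.35 higher (adjusted p = 1.23e-10), and 4.36 higher in irrigated C306 than in irrigated WL711.

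LOC542774 had 12.82, 11.41 and 12.54 in C306, against 8.74, 7.98 and 8.0 in WL711. LOC780602 had 11.42, 10.25 and 10.81 in C306, against 5.69, 7.37 and 7.82 in WL711. LOC542898 had 15.48, 15.05 and 15.3 in C306, against 11.18, 12.47 and 12.58 in WL711. All 3 genes were well separated, with differences of 4.02 ± 0.35, 3.87 ± 0.39 and 3.20 ± 0.24 (SE, adjusted p = 7.14e-09, 8.26e-08 and 3.92e-10). The call of LOC780602 rested on 1 of its 5 probe sets, the other 4 having differences between -0.65 and 1.52 that were not called. LOC780687 had 12.29, 11.8 and 12.35 in C306, against 9.35, 8.72 and 8.94 in WL711, a difference of 3.15 ± 0.21 (adjusted p = 5.82e-11). Its other probe set had 2.15 ± 0.53, and the 3 probe sets of LOC780599 were also all higher, by 1.64, 2.18 and 2.47. LOC732708, LOC606308, LOC100037581 and LOC543320 were 2.24 to 2.76 higher with at least 1 WL711 array under 5. The calls of LOC606308 and LOC100037581 were lost without C306 array 1 or C306 array 3.

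Among the falls, LOC543383 had 5.38, 6.19 and 4.69 in C306, against 7.39, 7.71 and 8.11 in WL711. The difference was -2.32 ± 0.50 (SE, adjusted p = 0.00237), and its brighter probe set had -1.91 ± 0.64. LOC606310 had 7.58, 9.72 and 7.97 in C306, against 11.19, 10.02 and 10.06 in WL711, a difference of -2.0 ± 0.37 (adjusted p = 0.00051). The brighter genes of this group were LOC542853 and LOC543368. LOC542853 had 11.64, 13.23 and 11.79 in C306, against 14.74, 13.69 and 13.66 in WL711. LOC543368 had 9.84, 11.03 and 10.33 in C306, against 12.64, 11.86 and 11.89 in WL711. Neither gene overlapped, with differences of -1.81 ± 0.30 and -1.73 ± 0.24 (adjusted p = 0.000186 and 1.45e-05), although C306 array 2 was the highest C306 array and WL711 array 1 the highest WL711 array in each. LOC542901 was lower on 1 probe set, with 6.9, 6.22 and 7.06 in C306, against 8.55, 8.64 and 8.91 in WL711, and higher by 0.82 ± 0.27 on a brighter one. LOC543390, LOC542807, LOC543104, LOC100125700, LOC100037541 and LOC543317 had differences between -1.72 and -1.91. The call of LOC542807 was lost without C306 array 3, and that of LOC543104 without C306 array 1 or WL711 array 1.

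Whether these differences belonged to drought was tested as the difference between the parents under drought minus that under irrigation. Irrigated C306 and irrigated WL711 differed at 5893 probe sets (16.1%), 3022 higher in C306 (8.23%) and 2871 lower (7.82%), and the parental difference changed with the water regime at 2841 (7.74%), 1133 upward (3.09%) and 1708 downward (4.65%). Of the 5153 drought calls, 1704 were also called under irrigation, which is 33.1% of the drought calls and 28.9% of the irrigated calls. In 1434 of them the direction was the same. Another 3449 were called under drought and not under irrigation, but for 2481 of these the change between regimes was not called, so a difference between the regimes was shown for the other 968.

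The direction turned round at 270 probe sets, 87 with C306 higher under drought and 183 with C306 lower. The change between regimes was called at all 270. Calls of opposite direction in the regimes make that nearly certain, so it is no separate support. The 270 included 23 probe sets of 18 named genes. COMT1 averaged 14.14 in C306 and 12.63 in WL711 under drought, but 11.91 in C306 and 13.15 in WL711 under irrigation. The change was 2.75 ± 0.22 (SE, adjusted p = 3.88e-09), and drought minus irrigation was 2.23 within C306 and -0.52 within WL711. LOC542773 averaged 12.84 in C306 and 7.49 in WL711 under drought, and 8.57 in C306 and 10.09 in WL711 under irrigation, a change of 6.88 ± 0.60 (adjusted p = 2.13e-08). LOC542774, LOC780687 and LOC780599 turned in the same way, with changes of 5.63 ± 0.50, 4.96 ± 0.30 and 4.58 ± 0.43. Also turned were tubb1, with a change of 1.85 ± 0.26 (adjusted p = 3.95e-05), and the second 6-FEH probe set, with 2.46 ± 0.39 (adjusted p = 0.000149). In the other direction, cys1 (-1.38 ± 0.24, adjusted p = 0.000583), GSTZ1 (-1.27 ± 0.29, adjusted p = 0.00582) and LOC543127 (-3.16 ± 0.64, adjusted p = 0.00226) were lower in C306 under drought and higher in C306 under irrigation. The drought call of LOC543127 was lost without C306 array 1 or 3 or WL711 array 1.

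**Figure D3:**
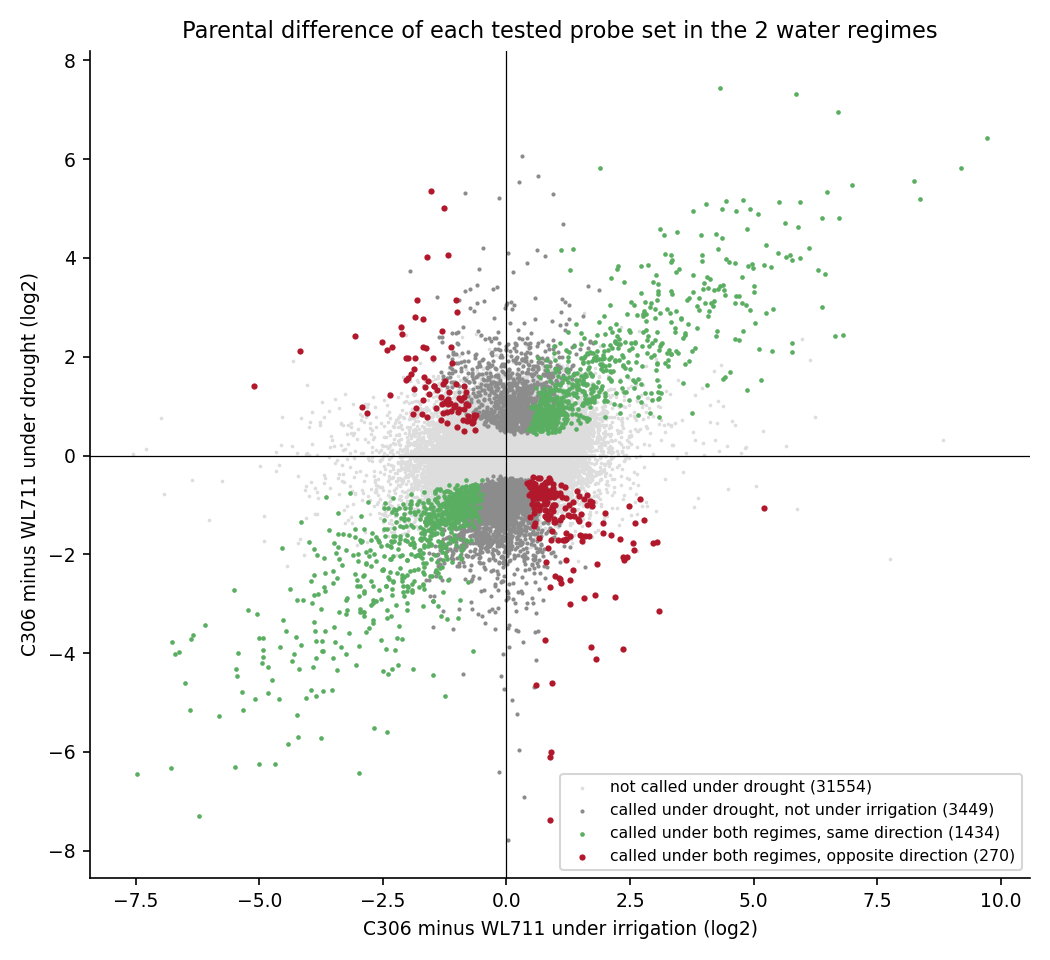
Difference between C306 and WL711 under drought (vertical axis) against that under irrigation (horizontal axis), both log2, for 36707 probe sets coloured by call. Green probe sets (1434) were called the same way in both regimes and red ones (270) in opposite directions. Darker grey ones (3449) were called under drought and not under irrigation, and light grey ones (31554) were not called under drought.

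Other named genes differed more under 1 regime than the other. The first 6-FEH probe set differed by 0.21 under irrigation (adjusted p = 0.623), a change of 1.44 ± 0.36 (adjusted p = 0.0127), and the dimmer Rab15 probe set by -0.55, a change of 2.44 ± 0.73 (adjusted p = 0.04). The brighter Rab15 probe set was 1.85 higher in irrigated C306 than in irrigated WL711 (adjusted p = 0.00703), and its change of -0.63 was not called (adjusted p = 0.645). LEA1 was likewise 3.03 higher in irrigated C306 (adjusted p = 0.00344), with a change of -1.07 that was not called (adjusted p = 0.595). The brighter LTP3 probe set had -2.14 in irrigated leaves, and its change was 2.76 ± 0.40 (adjusted p = 6.21e-05). PCS1 had a change of -1.64 ± 0.41 (adjusted p = 0.0138), ALP of -0.91 ± 0.23 (adjusted p = 0.0149) and Eif4B of -0.81 ± 0.23 (adjusted p = 0.0293). Some genes with no call under drought changed through a difference seen in irrigated leaves. LOC100037528 had 4.63, 4.55 and 4.82 in C306 and 6.24, 5.57 and 4.53 in WL711 under drought, but had a difference of -6.92 between the irrigated parents, a change of 6.15 ± 0.63 (adjusted p = 3.07e-07). LOC543197 was 4.30 higher in irrigated C306 and had 0.09 under drought, a change of -4.21 ± 0.74 (adjusted p = 0.00058), and LOC606323 had a change of -3.71 ± 0.78 (adjusted p = 0.0035). A rbcl probe set (-4.58 ± 1.35, adjusted p = 0.0364) and a wcH2B-6 probe set, for a histone H2B gene (-2.83 ± 0.80, adjusted p = 0.0289), changed as well, and neither was called in either regime alone.

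**Figure D4:**
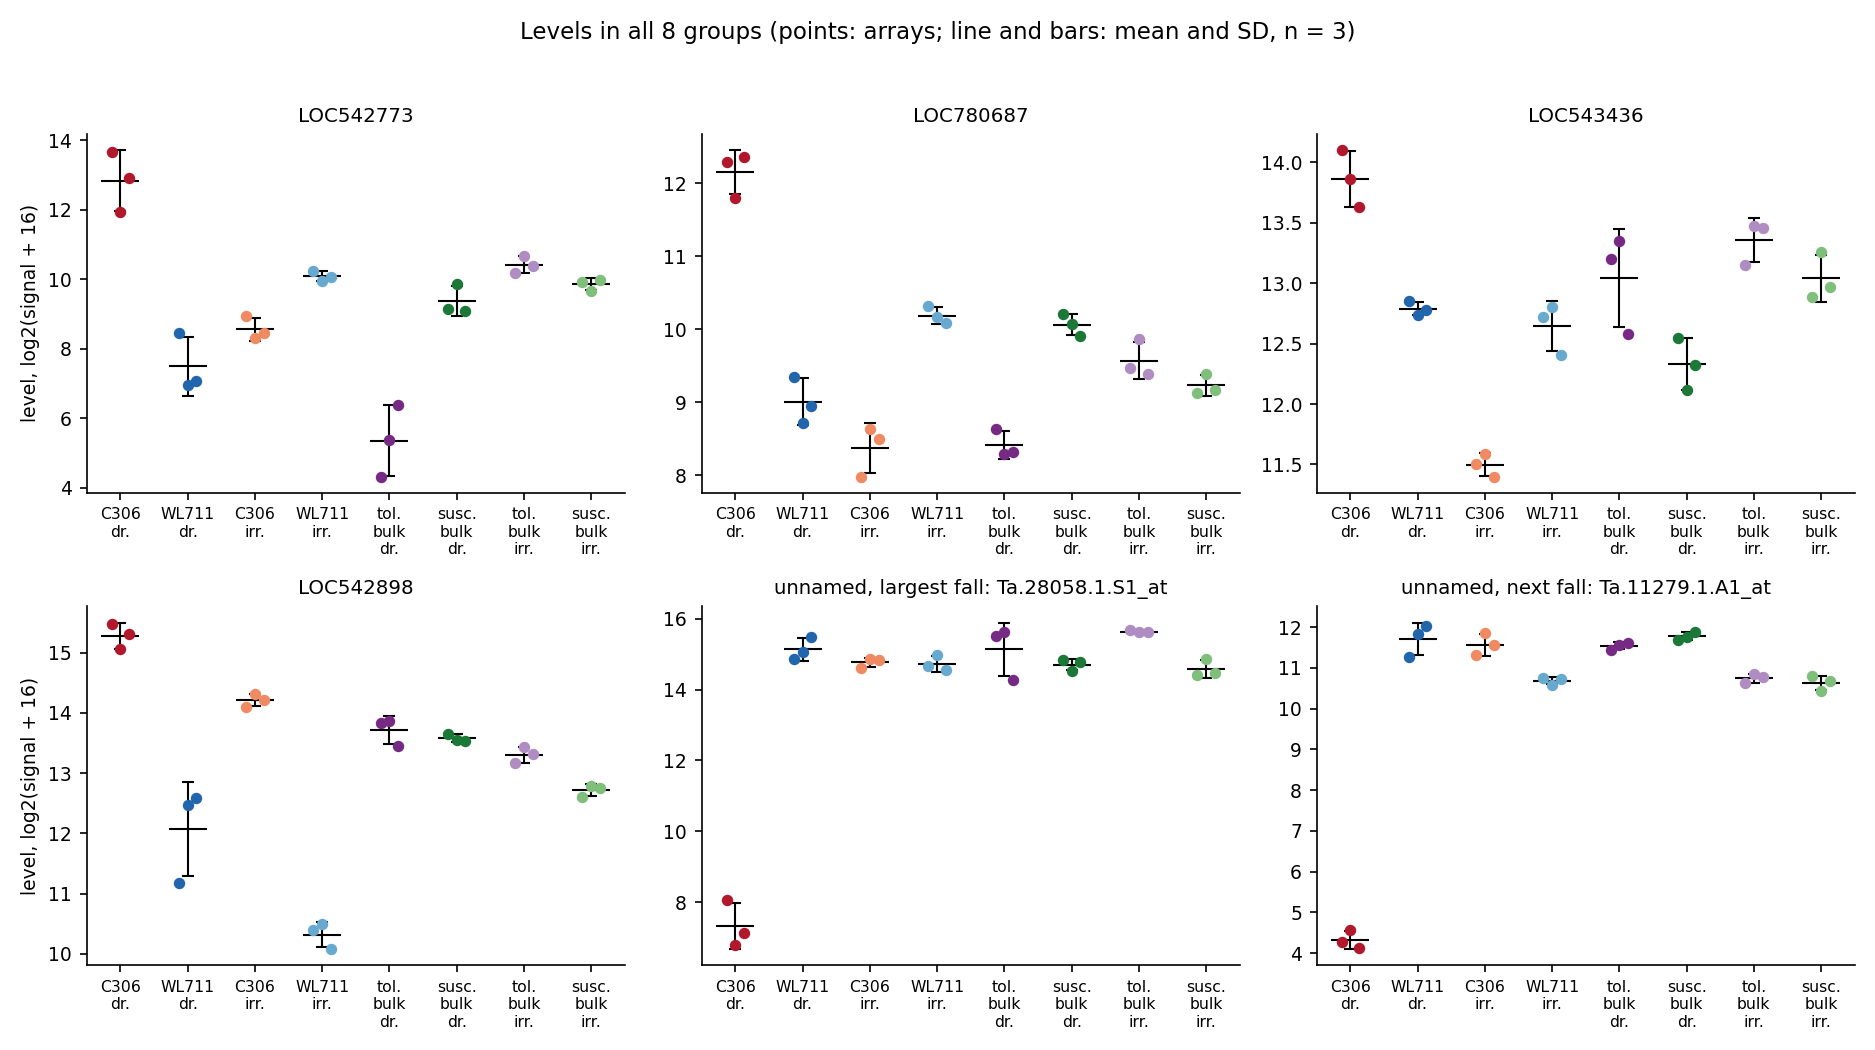
Levels, log2(signal + 16), of 4 genes and 2 unnamed probe sets in all 8 groups, with points for arrays and lines and bars for the mean and SD of 3 arrays (dr., drought, and irr., irrigation). The first 4 are highest in C306 under drought, and the 2 unnamed probe sets are low in that group and bright in the other 7.

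The bulks of recombinant inbred lines sort the same parental alleles by tolerance and share no array with the parents. Under drought the tolerant bulk differed from the susceptible bulk at 2205 probe sets (6.01%), 914 higher (2.49%) and 1291 lower (3.52%). The count ran between 913 and 4776 with 1 bulk array left out, and without tolerant bulk array 3 the balance turned to 2744 higher and 2032 lower. Of the 2205, 605 were also called between the parents, which is 11.7% of the parental calls and 27.4% of the bulk calls. The direction was the same at 202 of the 605, 60 higher and 142 lower in the tolerant materials, and opposite at 403, or 66.6%. Over the alternative settings the opposite share ran between 50.4% and 74.2%.

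Of the 948 named probe sets, 10 (1.05%) were called in the same direction in both comparisons, beside 0.55% of all tested probe sets, and they stood for 4 genes higher and 4 lower. LOC542837 had 10.99, 11.68 and 11.24 in C306, against 9.17, 8.95 and 9.13 in WL711, a difference of 2.22 ± 0.23 (SE, adjusted p = 1.32e-07), and was 1.13 higher in the tolerant bulk (adjusted p = 0.00387). LOC543436 had 14.1, 13.86 and 13.63 in C306, against 12.85, 12.74 and 12.78 in WL711, a difference of 1.07 ± 0.19, and was 0.72 higher in the tolerant bulk (adjusted p = 0.0222). LOC606354 had differences of 0.83 between the parents, a call lost without C306 array 1, and 0.97 between the bulks, and the brighter LOC542901 probe set had 0.82 and 1.01, a parental call that was lost without any of the C306 arrays or WL711 array 2 or 3. Of the genes lower in both, LOC543422 had 7.2, 7.52 and 6.94 in C306, against 8.57, 8.56 and 8.61 in WL711. It was lower by -1.36 ± 0.22 between the parents (adjusted p = 0.000101) and by -1.91 between the bulks (adjusted p = 4.07e-06), and all 3 of its probe sets were lower in C306. LOC543383 had -2.32 and -2.49, LOC606310 had -2.0 and -1.47, and LOC542879 had -1.11 and -1.14, a parental call lost without C306 array 3.

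Opposite directions were found at 25 named probe sets of 20 genes (2.64%), beside 1.1% of all tested probe sets. LOC542773 and LOC542774 had differences of 5.35 and 4.02 between the parents and of -4.01 and -4.02 between the bulks (adjusted p = 1.37e-06 and 6.46e-08). COMT1 was higher in C306 and lower in the tolerant bulk, by -0.73 (adjusted p = 0.00503). AGP-S was lower in C306 and higher in the tolerant bulk, by 1.17 (adjusted p = 0.00287), and tubb1 had 0.66 between the parents and -0.85 between the bulks (adjusted p = 0.00633). The bulk difference of 6-FEH on its first probe set, -0.39, was not called (adjusted p = 0.419), nor were those of SAHH (0.01, adjusted p = 0.985), Rab15 (-1.39, adjusted p = 0.12) and PR5 (-0.42, adjusted p = 0.588).

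**Figure D5:**
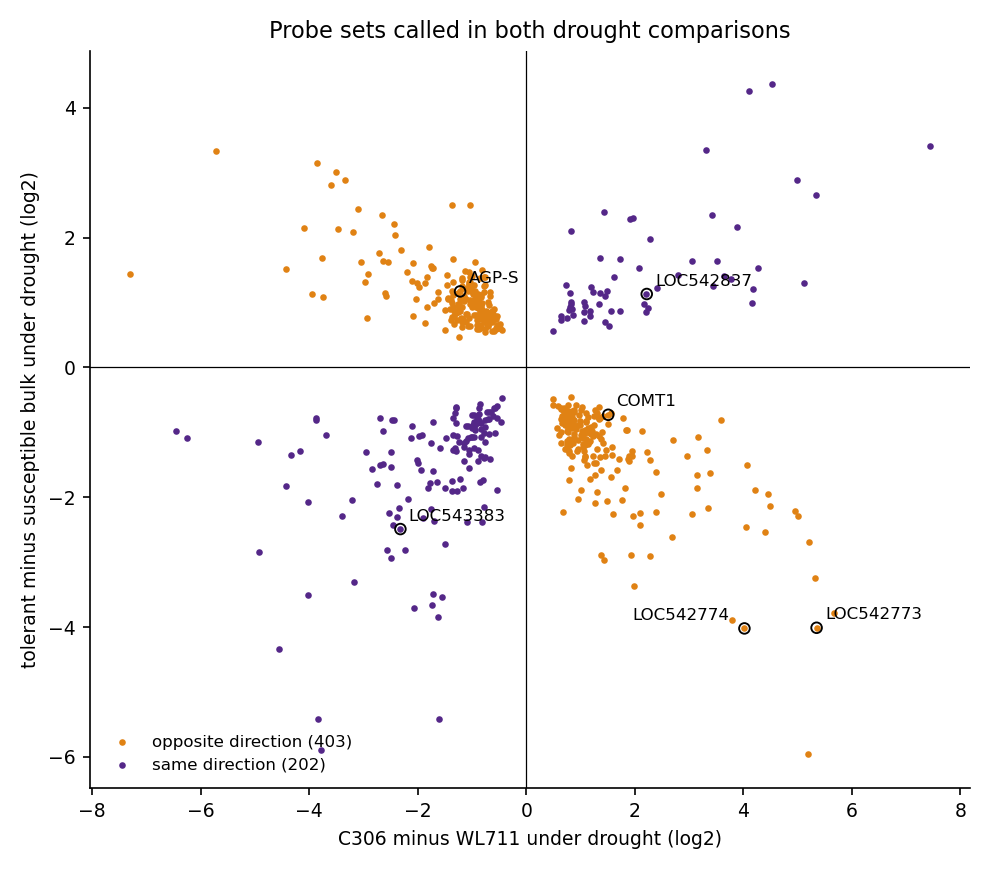
Difference between the tolerant and the susceptible bulk (vertical axis) against the difference between C306 and WL711 (horizontal axis), both under drought and in log2, for the 605 probe sets called in both comparisons. Probe sets of opposite direction (403, orange) outnumber those of the same direction (202, purple), and 6 named genes are circled.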

How the data were processed

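Total RNA (8 ug per array) was labelled with biotin, per the labels' protocols, and hybridised to Affymetrix wheat arrays. The authors deposited 1 intensity per probe set, on a linear scale. GCOS 1.2 is the tool that the submitters' processing notes name. Their mean, trimmed by 2% at each end, lay between 500.091 and 500.113 on all 24 arrays, so the authors' values had been scaled. Detection calls were not used here, and 3 arrays a group limit the precision.

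Of 61290 probe sets, the 111 array controls and the 40% with the lowest mean over all arrays (under a signal of 39) were left out, and 36707 were tested. Intensity was turned into log2(signal + 16) and the median of the tested probe sets was subtracted on each array (these medians differed by up to 0.387). limma 3.58.1 in R 4.3.3 fitted 8 group means (residual df 16, prior df 8.32) with eBayes and an intensity trend. Tests were two-sided, with Benjamini-Hochberg adjustment over all tested probe sets, and a probe set was called at an adjusted p under 0.05. The fit was tested on simulated data that gave a probe set the same spread in all 8 groups. That test cannot speak to unequal spread between groups or to arrays that stood apart.

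Groups came from the sample titles. Gene names came from the platform annotation and RefSeq (IWGSC CS RefSeq v2.1), where 770 of 771 genes were found. Genes were named by a rule: the 12 widest rises and falls without overlap between the groups, up to 3 called members of each list in each direction, the 5 widest changes between regimes in each direction, and up to 5 shared with the bulks in each direction. Every other called gene with a descriptive name was added after the values were seen. The members, lists and tests were chosen with earlier results of these data known. Alternatives covered the pseudocount, filter, centring, prior, array weights, replicate block, the arrays entered and leaving out arrays.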

Additional observations from a re-analysis of the deposited data

Results flagged for a closer look

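Of 151 probe sets followed, 37 had a parental difference that changed between drought and irrigation in limma's test of that change (adjusted p under 0.05). The 151 take 1 probe set for most genes known by a RefSeq number and every tested probe set of the gene lists. Over all tested probe sets the change was called at 7.74%. Some of the 151 were chosen for a wide change or a wide drought difference, so these shares cannot be compared. The values here are the change on the log2 scale. Upward changes among named genes were 6.88 for LOC542773, 6.15 for LOC100037528, 5.63 for LOC542774, 4.96 for LOC780687, 4.58 for LOC780599, 3.22 for LOC100037581, 2.76 for the brighter LTP3 probe set, 2.75 for COMT1 and 2.68 for LOC543104. Others were 2.46 and 1.44 for 2 of the 6-FEH probe sets, 2.44 for the dimmer Rab15 probe set (the brighter one had -0.63, not called), 2.22 for LOC543436, 1.85 for tubb1, 1.59 for tubb2, 1.48 for LOC606354, 1.31 for LOC542901, 1.25 for LOC542837 and 0.92 for TEF1. Downward changes were -4.58, -3.25 and -2.19 for 3 of the 17 rbcl probe sets, -4.21 for LOC543197, -3.71 for LOC606323, -3.16 for LOC543127, -2.83 for wcH2B-6, -1.64 for PCS1 and -1.4 for LOC543422. The cys1 probe sets had -1.52 and -1.38, GSTZ1 -1.27, ALP -0.91, Eif4B -0.81 and TPC1 -0.8. For LOC100037528 and LOC543104 the parental difference was -0.78 and -1.87 under drought and -6.92 and -4.55 under irrigation. Among the unnamed probe sets, that with the largest rise in C306 had 3.11, that with the largest fall -7.83 and that with the next fall -8.28.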

How the results depend on the processing

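The count of drought calls between the parents stayed within 1.5 times of 5153 under every change of pseudocount, filter, centring, trend and prior, and with array weights. It was 864 when the fit held only the arrays compared and took its spread from those arrays alone. That fit has fewer samples behind its spread, and replicates of both parents correlated less under drought than under irrigation. The part of each in the fall to 864 was not tested. The count was 1159 without C306 drought arrays 1 and 3. It was between 3052 and 7073 with 1 array left out, the lowest without C306 array 1 (3052) and array 3 (3166). The change between regimes had 1893 calls with no filter, 7496 with array weights, 1683 with only the arrays compared, 1314 without C306 drought arrays 1 and 3, 5774 without C306 drought array 2 and WL711 drought array 1, and between 1971 and 4783 with 1 array left out, the highest without WL711 drought array 1. The irrigated comparison had between 3853 and 4570 calls with 1 array left out, the lowest without WL711 array 2, and the bulks between 913 and 4776, the extremes without tolerant bulk array 2 and array 3. Beside the main 1968 higher and 3185 lower, centring on all probe sets gave 1101 and 4968, no filter 1079 and 4304, and the 60% filter 2723 and 2750. Centring on all probe sets moved the median difference to -0.25. Same-numbered arrays of the drought parents had correlated deviations of -0.106, -0.13 and 0.103, so the numbers did not pair them, and the replicate block gave 5140 calls. Of 54 calls on named genes and probe sets, none reversed and 15 were kept under every alternative, COMT1, LOC542773, LOC542774, LOC780687 and 1 probe set each of 6-FEH and cys1 among them. The fit with only the arrays compared ended 38, the second probe sets of 6-FEH and cys1 among them, leaving out C306 drought arrays 1 and 3 ended 30, PR5 and PCS1 among them, leaving out 1 drought array ended 21, no filter ended 11, and centring on all probe sets ended 8, SAHH, tubb1 and LTP3 among them. The alternative without C306 drought array 2 and WL711 drought array 1 was chosen after seeing the data and ended 3. The cause of these shifts was not tested.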
